A study of Arabidopsis thaliana with 14 samples.

Results

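The genes described here are those of the mitochondrial genome of Arabidopsis thaliana, taken as every gene row whose identifier starts with ATMG and that held at least 10 reads summed over the 14 root libraries. This rule kept 57 genes of 146 mitochondrial rows and of 33602 gene rows in all. Of the 89 rows left out, 59 had no read in any library and the highest of the rest had 8 reads, while 5 of the genes kept lay at 10 or 11 reads. The libraries were made from polyadenylated RNA, so the counts give the captured mitochondrial RNA only, and neither the amount of mitochondrial RNA in the root nor the number of mitochondria was measured. In whole roots, fewer cells of a type and less RNA per cell cannot be told apart.

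Plant mitochondria keep a small genome of their own, which codes for ribosomal RNAs, transfer RNAs, some ribosomal proteins, proteins of cytochrome c maturation and a few subunits of the respiratory complexes and of the ATP synthase. The other subunits, the RNA polymerases and the nucleases of the organelle are encoded in the nucleus and imported. In plant mitochondria a poly(A) tail marks an RNA for decay rather than for translation, and most of the transcripts carry no tail. Pieces of the mitochondrial genome also sit in the nuclear chromosomes, and in Arabidopsis a very large insertion of this kind lies near the centromere of chromosome 2.

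The study asked whether TEX1 and HPR1, subunits of the nuclear THO/TREX complex that packages and exports messenger RNA, act in ending transcription, and read root RNA for transcripts that run past their annotated ends. In pots, roots of 3 weeks were taken from Col-0, from pho1-7, which carries a T-DNA insertion in the phosphate exporter gene PHO1, and from the double mutants pho1-7 tex1-4 as well as pho1-7 hpr1-5, with 2 single-end libraries each. On plates with sucrose, roots of 10 days were taken from Col-0 and from the tex1-4 T-DNA line, which has a functional PHO1 gene, with 3 paired-end libraries each. All lines are in the Col-0 ecotype, the hpr1 allele is spelled here as in the sample labels (the study's text writes hpr1-6), the age on plates is also that of the labels (the study's text gives a shorter time), no further treatment is named, and growth, age and library type differ together between pots and plates.

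Gene reads per library ranged from 56068761 to 110039106. Mitochondrial rows took 5962 to 48079 of them, which is 0.00914% to 0.0461%, and the plastid genes took 7.25 to 14.2 reads per 1000000. PHO1, TEX1 and HPR1 each had a lower level in the lines that carry their mutation than in the controls. The 8 root markers were read in every library, and the summed level of 5 green tissue markers ranged from 6.55 to 160 counts per 1000000 (CPM), lowest in replicate 1 of pho1-7 tex1-4. Replicate 2 of Col-0 on plates differed most from its group, with a chi-square per degree of freedom over all genes of 116 and 93.8 against the other Col-0 libraries, where the other replicate pairs lay between 11.3 and 41.0.

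Many mitochondrial genes have a near-identical relative in the chromosome 2 insertion. The TAIR10.1 annotation notes a nuclear relative for 53 of the 146 mitochondrial rows, and all 55 of these relatives lie on chromosome 2. Of these, 52 aligned to the mitochondrial sequence of TAIR10.1 over at least 95% of their length. Over the aligned stretch all were at least 99.0% identical, and 28 matched it without a difference. Reads that fitted several places equally well were set aside by the authors' counting, together with reads of low mapping quality. A read from a stretch that is identical in the reference they used could thus be given to neither copy. The TAIR10.1 identities do not settle which reads these were. ATMG00980 and AT2G07675, without a difference in TAIR10.1, held 204 and 161 reads over the 14 libraries.

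Of the 57 genes, 18 have such a noted relative, and their median was 24 reads over the 14 libraries with a highest value of 204. The 39 genes without a noted relative had a median of 127 reads. These 39 were not searched for copies in the nuclear genome, so they may have some. Among the 18 genes with a relative, the notes give a function for 14. They include ribosomal proteins S4 and S12 (ATMG00290 and ATMG00980), NADH dehydrogenase subunits 3 and 1A (ATMG00990 and ATMG01275), subunits 1, 8 and 9 of the ATP synthase (ATMG01190, ATMG00480 and ATMG01080), cytochrome c oxidase subunit 3 (ATMG00730) and cytochrome c biogenesis 452 (ATMG00180). The genes without a noted relative carry no name in the annotation used here and are called by their identifiers.

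How close the copies are is shown by 2 pairs that differ at a single base, given 5′ to 3′ along the plus strand of chromosome 2 and the matching minus strand of the mitochondrial sequence, with the differing base in capitals. The first pair belongs to ATMG01330, the one gene called in any comparison below, and the second to ATMG01190, subunit 1 of the ATP synthase.
AT2G07808 (2:3336979-3337008): gccgggacgggcctAgattcagaaagatga
mitochondrion (MT:94337-94366): gccgggacgggcctGgattcagaaagatga
AT2G07698 (2:3361914-3361943): cgccccctttcctcTgcaacttacacatcc
mitochondrion (MT:69183-69212): cgccccctttcctcCgcaacttacacatcc
The coordinates are those of TAIR10.1. AT2G07808, annotated as a pseudogene of ATMG01330, matches the mitochondrial stretch in 388 of 389 bases, and AT2G07698 matches in 2664 of 2665. The authors counted on TAIR10.31, whose mitochondrial sequence was not compared here and may differ.

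Nearly all of the captured mitochondrial RNA came from ATMG00020 and ATMG01390, which held 249671 of 259912 mitochondrial reads (96.1%). The annotation used here does not say which kind of RNA they encode, so the mitochondrial share of reads cannot be read as messenger RNA. The other 55 genes shared 10119 reads. ATMG00090 (1234 reads) and ATMG01360 (1018 reads) came next, 23 genes were above 100, and 34 lay between 10 and 100. In all, 23 genes had a read in every library.

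ATMG00020 stood in TMM-scaled counts at 138, 218 and 161 CPM in Col-0 on plates and at 211, 291 and 188 CPM in tex1-4 on plates. In pots it stood at 64.1 and 97.5 CPM in Col-0, 83.0 and 76.7 CPM in pho1-7, 57.3 and 51.9 CPM in pho1-7 tex1-4, and 101 and 75.1 CPM in pho1-7 hpr1-5. The 2 libraries of pho1-7 tex1-4 were the lowest of all 14, and every plate library was above every pot library.

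ATMG01390 stood at 60.4, 104 and 65.3 CPM in Col-0 on plates and at 89.9, 138 and 91.8 CPM in tex1-4 on plates. In pots it stood at 43.5 and 58.4 CPM in Col-0, 52.55 and 45.2 CPM in pho1-7, 42.1 and 34.9 CPM in pho1-7 tex1-4, and 70.3 and 54.0 CPM in pho1-7 hpr1-5. Here too both pho1-7 tex1-4 libraries were the lowest, but plates and pots overlapped. Of these values, replicate 2 of Col-0 on plates was the highest Col-0 library for both genes.

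The ratio of ATMG00020 reads to ATMG01390 reads did not overlap between the experiments. It was 2.05 to 2.47 in the 6 plate libraries and 1.36 to 1.70 in the 8 pot libraries. On plates the genotypes overlapped, with a mean ratio of 2.28 ± 0.189 (SD, n = 3) for Col-0 against 2.17 ± 0.153 (SD, n = 3) for tex1-4. Age, growth medium and library type cannot be told apart in this comparison.

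**Figure D1:**
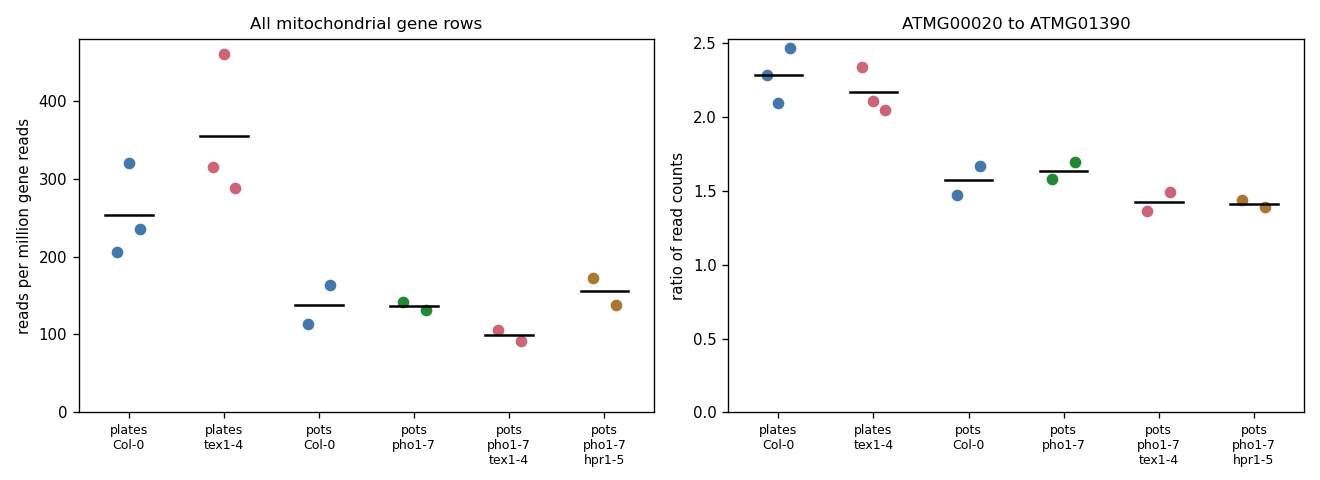
Reads on all mitochondrial gene rows per 1000000 gene reads (left) and the ratio of ATMG00020 to ATMG01390 reads (right), by group, with a point per library and a bar at the group mean. The plate groups lie above the pot groups in the ratio, between 2.05 and 2.47 against 1.36 and 1.70.

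The other 10 of the 12 genes with the highest mean level were between 0.0989 and 1.84 CPM in every library, over 30-fold below ATMG01390 in the same library. ATMG00090 ranged from 0.597 to 1.66 CPM, ATMG01360 from 0.334 to 1.84 CPM, ATMG00660 from 0.483 to 1.15 CPM and ATMG00080 from 0.304 to 0.934 CPM. ATMG00160 ranged from 0.172 to 1.01 CPM, ATMG00070 from 0.317 to 0.971 CPM and ATMG01370 from 0.264 to 0.906 CPM. ATMG00640 (0.172 to 0.798 CPM), ATMG00690 (0.142 to 0.720 CPM) and ATMG01380 (0.0989 to 0.694 CPM) closed the list. For 8 of these 10 genes the highest library was replicate 2 of tex1-4 on plates, the library with the largest mitochondrial share.

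**Figure D2:**
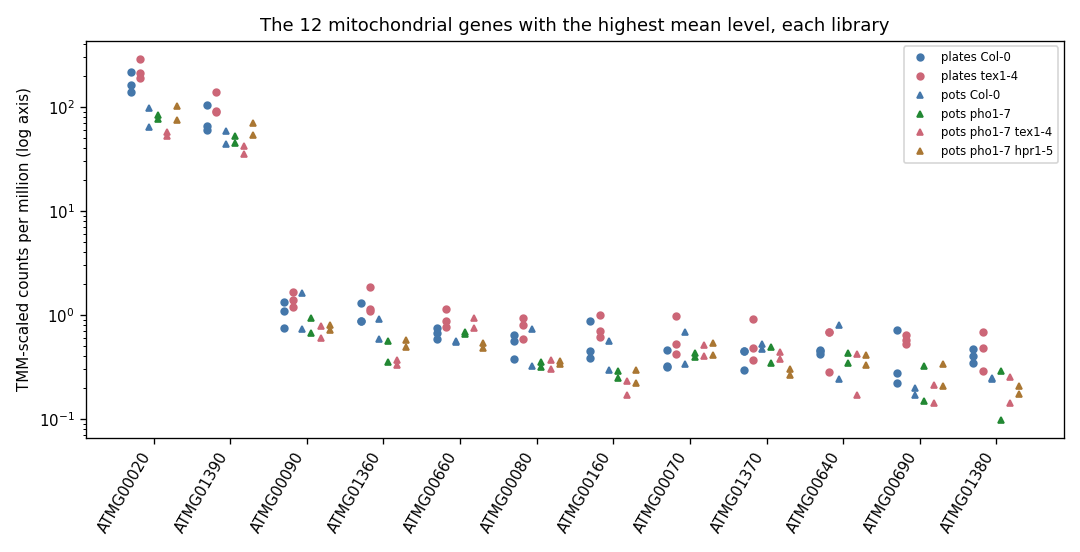
TMM-scaled counts per 1000000 of the 12 mitochondrial genes with the highest mean level, with a symbol per library (circles for plates, triangles for pots) on a log axis. ATMG00020 and ATMG01390 stand between 34.9 and 291 CPM and the other genes at or below 1.84 CPM.

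Over all 57 genes, 5 had every plate library above every pot library in reads per 1000000, against 14.4% of all genes with 10 reads, and 0 had every pot library above every plate library, against 20.4%. The 5 were ATMG00020, ATMG00520, ATMG01410, subunit 1 of the ATP synthase (ATMG01190) and cytochrome c oxidase subunit 3 (ATMG00730). ATMG00730 had 1 to 9 reads in the plate libraries and 0 in each pot library, which allows up to 3 reads per library by counting error. The chromosome 2 relative of ATMG01190 followed it, with AT2G07698 at 57 to 144 reads in the plate libraries and 7 to 17 in the pot libraries.

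The named genes with a relative were sparse. The 4 genes noted as ATP synthase together had 11 to 25 reads in Col-0 on plates, 30 to 38 in tex1-4 on plates and 2 to 10 in the pot libraries. The fourth of them, ATMG01090, held 90 of their 202 reads over the 14 libraries. Its relative AT2G07777 aligned to the mitochondrion over only 59.3% of its length, so this naming is less sure. The 2 genes noted as cytochrome c oxidase, ATMG00730 and ATMG01280, had 3 to 11 reads in the plate libraries and at most 1 read in a pot library. The note for ATMG01280 reads only subunit II-like. Further cytochrome c oxidase genes may be among those without a noted relative, so these counts do not give the level of the class. The 2 genes noted as ribosomal proteins S4 and S12 had 1 to 24 reads in Col-0 on plates, 20 to 40 in tex1-4 on plates and 5 to 28 in pots. ATMG00560, whose relative matches a stretch that covers the ribosomal protein gene rpl2, was not counted with them, nor were genes without a name. In pots 18 of the 57 genes had enough reads to enter the fit, among them the ribosomal protein S12 gene ATMG00980, which was not called in any pot comparison (adjusted p from 0.347 to 0.767).

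Whether tex1-4 changes the captured mitochondrial RNA in a wild-type background was asked on plates. Mitochondrial rows averaged 355 ± 92.8 (SD, n = 3) reads per 1000000 gene reads in tex1-4, against 254 ± 59.1 (SD, n = 3) for Col-0, a ratio of 1.40. The libraries stood at 206, 320 and 235 in Col-0 and at 315, 461 and 288 in tex1-4, so the groups overlapped through replicate 2 of Col-0. The exact two-sided permutation test did not separate the groups (p = 0.3, with 0.1 the smallest p possible). The difference of 100.9 was 47.9 without replicate 2 of tex1-4. Of 27 genes with enough reads, 26 had a higher fitted level in tex1-4, with a median log2 change of 0.44 where the median of all genes tested was 0.00822. These genes share their libraries and are not independent. Some passed the filter largely through tex1-4, such as ATMG00516 with 6 to 16 reads in Col-0 and 20 to 35 in tex1-4. The count of 26 is therefore no test of a difference. The summed green tissue markers were lower in tex1-4, at 28.3 to 39.0 CPM against 49.8 to 71.5 CPM in Col-0, and their part in the difference was not tested.

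None of the 27 was called in this comparison by edgeR's quasi-likelihood test at an adjusted p under 0.1 and more than 2-fold, where 5.42% of all genes tested were called. The median standard error of the log2 change was 0.377 for these 27 and 0.109 for all genes tested, so a change was harder to call for them. At an unadjusted p under 0.05 there was 1 gene, ATMG00516, where 41.1% of all genes tested were under it. DESeq2 called 0 with 3 under that p. ATMG00020 had a log2 change of 0.41 ± 0.209 (standard error, SE, adjusted p = 0.177 from edgeR), and ATMG01390 of 0.48 ± 0.244 (SE, adjusted p = 0.184). Leaving out single libraries moved the count. The share of all genes called in these fits is not given here, so their counts are no support for a difference. Without replicate 2 of Col-0, which stood apart, 3 genes were called, all higher in tex1-4, namely ATMG00560, ATMG00690 and the ribosomal protein S12 gene ATMG00980. Without replicate 1 of Col-0 there were 2 (ATMG00516 and ATMG01120), and without replicate 3 of tex1-4 there was 1 (ATMG01120). In these fits ATMG00516, ATMG00560 and ATMG01120 reached the level of the low-count filter, 10 reads in a library of median size, in tex1-4 libraries only, so they entered the test through the group in which they were high.

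**Figure D3:**
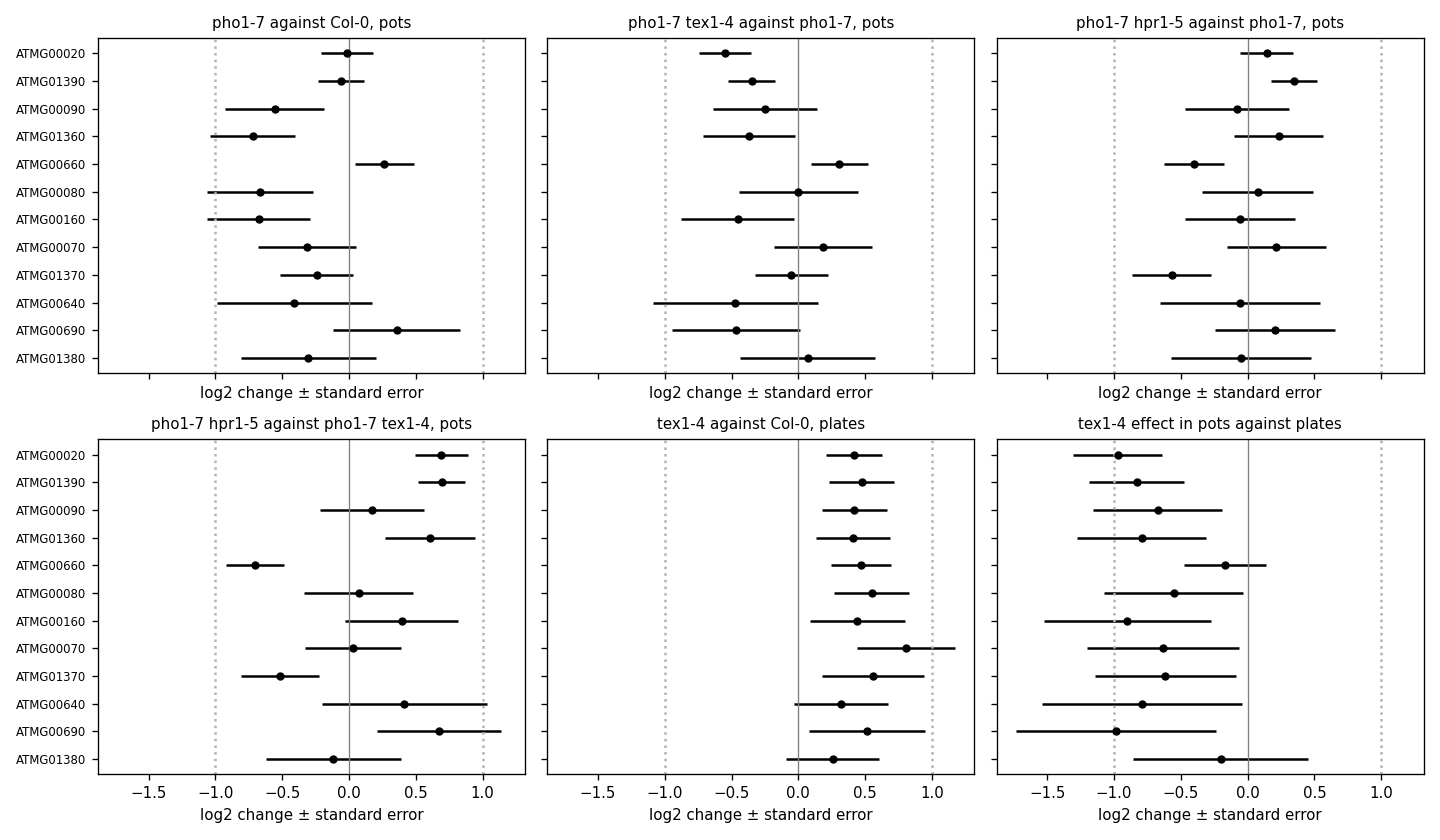
Log2 change with its SE for the 12 mitochondrial genes with the highest mean level in each of the 6 comparisons, with dotted lines at a 2-fold change. On plates all 12 lie above 0, and no gene of the 12 passes a 2-fold change in any panel.

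In pots, pho1-7 against Col-0 asked for the effect of the phosphate exporter mutation itself. The share of mitochondrial rows in the gene reads was 137 ± 6.97 (SD, n = 2) reads per 1000000 for pho1-7 against 138 ± 35.6 (SD, n = 2) for Col-0, whose libraries at 113 and 163 enclosed both pho1-7 libraries at 141 and 132 (p = 1.0, exact two-sided permutation test, with 0.333 the smallest p that 2 against 2 libraries can give). Of 18 genes tested, 0 were called by edgeR, against 1.87% of all genes, and DESeq2 also called 0. In the pot comparisons the median SE of these 18 ran from 0.378 to 0.415, against 0.0986 to 0.0990 over all genes, so a change was harder to call for them. ATMG00060 alone reached an unadjusted p under 0.05 in edgeR, where 25.8% of all genes did, and DESeq2 gave 0 genes under that p. ATMG00060 had a log2 change of -1.31 ± 0.521 (SE, adjusted p = 0.164). Without replicate 2 of Col-0 its log2 change was -0.53 (adjusted p = 0.709), and without replicate 1 of Col-0 it was -1.82.

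For pho1-7 tex1-4 against pho1-7 the share was lower, at 98.9 ± 10.6 (SD, n = 2) against 137 ± 6.97 (SD, n = 2) reads per 1000000. The libraries stood at 106 and 91.4 in pho1-7 tex1-4, below both pho1-7 libraries (p = 0.333, the smallest possible in the exact test). Here 0 of 18 genes were called by edgeR, against 5.02% of all genes, and DESeq2 called 0. ATMG00020 was the only gene with an unadjusted p under 0.05 (2 with DESeq2), where 47.3% of all genes had one. Its log2 change was -0.55 ± 0.197 (SE, adjusted p = 0.0612), under 2-fold. ATMG01390 had a log2 change of -0.35 ± 0.175 (SE, adjusted p = 0.152). The adjusted p of ATMG00020 lay between 0.102 and 0.217 when any one library of these groups was left out, and DESeq2 gave 0.00488. The summed green tissue markers were 6.55 and 117 CPM in the 2 pho1-7 tex1-4 libraries and 124 to 134 CPM in pho1-7, and their part in the difference was not tested.

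For pho1-7 hpr1-5 against pho1-7, the share was 155 ± 24.9 (SD, n = 2) against 137 ± 6.97 (SD, n = 2) reads per 1000000, and the groups overlapped (p = 0.667, exact two-sided permutation test). The difference of 18.7 was 1.03 without replicate 1 of pho1-7 hpr1-5 and 36.3 without its replicate 2. A single gene of 18 was called, lower in pho1-7 hpr1-5, where 5.19% of all genes were called and 2.46% in this direction. This was ATMG01330, with 10 and 11 reads in pho1-7 and 5 and 5 in pho1-7 hpr1-5, or 0.165 and 0.168 against 0.0732 and 0.0792 CPM. The pho1-7 hpr1-5 libraries were the lowest in pots and the pho1-7 libraries the highest, with the others at 0.123 to 0.142 CPM, while the plate libraries ran from 0.0454 to 0.183 CPM. Its log2 change was -1.11 ± 0.405 (SE, adjusted p = 0.0887 from edgeR). The gene reached the filter level of 0.153 reads per 1000000 in both pho1-7 libraries and in no other pot library, so it entered the test only through the group against which it was then called lower, and the call is no support for a difference. The call was lost with DESeq2 (adjusted p = 0.406), without the filter on low counts (0.182), with only the 2 groups in the fit (0.121) and without any one of the 4 libraries (0.175 to 0.226), and without replicate 2 of pho1-7 the gene ATMG00670 was called in its place.

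The chromosome 2 relative of ATMG01330 was also called lower in this comparison. AT2G07808 had 14 and 11 reads in pho1-7 and 2 and 2 in pho1-7 hpr1-5, a log2 change of -2.63 ± 0.513 (SE, adjusted p = 0.00694 from edgeR), and it was also lower than in pho1-7 tex1-4 (log2 change -2.29, adjusted p = 0.0169). It too needed the pho1-7 libraries to pass the filter, with 1 other pot library at that level, so its calls are no support for a difference either. ATMG01330 and AT2G07808 differ at the single base printed above, and the part of reads from one in the count of the other was not tested. AT2G07715, the relative of ATMG00560 described as a nucleic acid-binding OB-fold-like protein, was another relative that fell in pho1-7 hpr1-5, with 19 and 24 reads against 40 and 55 in pho1-7 (log2 change -1.19, adjusted p = 0.0105). In TAIR10.1 the mitochondrial stretch that AT2G07715 matches covers the ribosomal protein gene rpl2. ATMG00560 itself had 3 and 1 reads against 1 and 1 and was too low for the test.

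**Figure D4:**
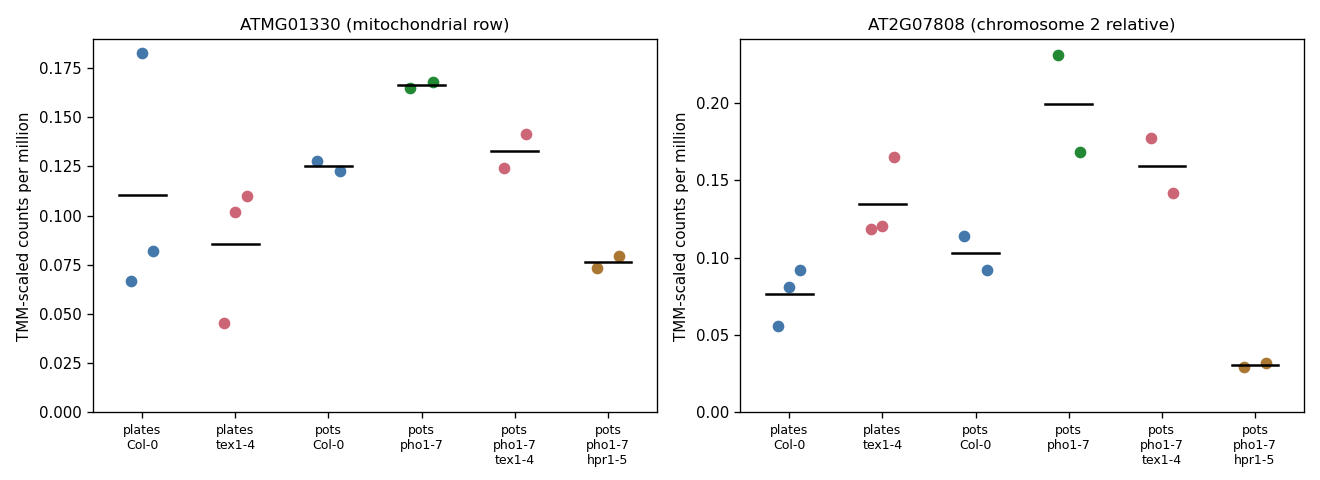
TMM-scaled counts per 1000000 of ATMG01330 (left) and of its chromosome 2 relative AT2G07808 (right), with a point per library and a bar at the group mean. Both rows are lowest in pots in pho1-7 hpr1-5, at 0.0732 and 0.0792 CPM for ATMG01330 and at 0.0293 and 0.0317 CPM for AT2G07808.

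The double mutants were also set against each other. Mitochondrial rows took 155 ± 24.9 (SD, n = 2) reads per 1000000 in pho1-7 hpr1-5 and 98.9 ± 10.6 (SD, n = 2) in pho1-7 tex1-4, a ratio of 1.57, and the groups did not overlap (p = 0.333, the smallest the exact test can give). None of 18 genes passed 2-fold and the adjusted p together, where 4.09% of all genes did, and DESeq2 also called 0. Below an adjusted p of 0.1 without the fold limit there were 3 genes, against 36.8% of all genes. The same 3 were those under an unadjusted p of 0.05, against 40.5% of all genes, and DESeq2 had 2. ATMG00020 (log2 change 0.69, SE 0.197, adjusted p = 0.0366) and ATMG01390 (log2 change 0.69, SE 0.174, adjusted p = 0.0236) were higher in pho1-7 hpr1-5. With any one of these 4 libraries left out, their adjusted p ran from 0.0268 to 0.180 and from 0.0187 to 0.124. The summed green tissue markers ranged from 63.8 to 159.5 CPM in pho1-7 hpr1-5 and from 6.55 to 117 CPM in pho1-7 tex1-4, and their part in the difference was not tested.

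ATMG00660 went the other way. It stood at 0.483 and 0.539 CPM in pho1-7 hpr1-5, 0.939 and 0.749 CPM in pho1-7 tex1-4, 0.693 and 0.656 CPM in pho1-7 and 0.554 and 0.568 CPM in Col-0. The 2 double mutants enclosed the other pot groups, with a log2 change of -0.71 from pho1-7 tex1-4 to pho1-7 hpr1-5 (SE 0.217, adjusted p = 0.0462 from edgeR). Without either pho1-7 tex1-4 library or either pho1-7 hpr1-5 library, its adjusted p lay between 0.0714 and 0.212, and DESeq2 gave 0.230.

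The tex1-4 change in pots (pho1-7 tex1-4 against pho1-7) had the opposite sign to that on plates for both leading genes, and the difference was tested as an interaction. It came to -0.97 on the log2 scale for ATMG00020 (SE 0.331, adjusted p = 0.165 from edgeR) and -0.83 for ATMG01390 (SE 0.357, adjusted p = 0.275). Of 28 genes tested, 25 had a negative interaction with a median of -0.75, where the median over all genes was 0.0128, and 0 were called, against 1.81% of all genes. The 28 genes share their libraries and are not independent, so the count of 25 is no test either. Their median SE was 0.699, against 0.166 over all genes. At an unadjusted p under 0.05 there were 3, against 16.1% of all genes, the third being ATMG00650 with a log2 difference of -1.25 ± 0.470 (SE, adjusted p = 0.210). DESeq2 called 0 with 2 under that p. Without replicate 2 of Col-0 on plates, 3 genes were called, ATMG00020 (-1.18), ATMG01390 (-1.12) and ATMG00690 (-1.71). The share of all genes called in that fit is not given here, so this count is no support for a difference. The background genotype, age, growth and library type differ together between the experiments and cannot be told apart.

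The authors also counted reads in stretches downstream of annotated 3′ ends, and 7 of their 1462 extensions belong to mitochondrial genes. These 7 held 5138 reads, and for 6 of them the extension held more reads than the gene over the 14 libraries. The share was largest for ATMG01120, with 915 reads in the extension and 86 in the gene, and ATMG00670 followed with 797 and 236. ATMG00660 was the exception, with 593 reads against 852.

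The extension of ATMG01120 had more reads in tex1-4 on plates. It held 43, 49 and 47 reads in Col-0 and 98, 133 and 114 in tex1-4, so the groups did not overlap. The log2 change was 1.11 ± 0.198 (SE, adjusted p = 0.00884 from edgeR on genes and extensions in one table), and it was the only one of the 7 called, where 16.6% of all extensions were. The gene itself had 7, 5 and 3 reads in Col-0 and 19, 20 and 9 in tex1-4, too few for the filter. Extension reads per gene read were 6.14, 9.8 and 15.7 in Col-0 and 5.16, 6.65 and 12.7 in tex1-4. A change of the extension relative to the gene was not tested. Without replicate 2 of tex1-4 the extension fell short of 2-fold (log2 change 0.98, adjusted p = 0.0400), and without replicate 2 of Col-0 the extension of ATMG01370 was called as well (log2 change 1.03).

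In pots the same extension held 44 and 57 reads in pho1-7 and 55 and 71 in pho1-7 tex1-4, with a log2 change of 0.05 ± 0.246 (SE, adjusted p = 0.901). The difference between pots and plates was -1.06 on the log2 scale (SE 0.304, adjusted p = 0.0969), where 5.27% of extensions were called. The call of this difference was lost with the replicate number as a block and in 8 of the 10 fits that left out 1 library (adjusted p from 0.0771 to 0.332). Without replicate 2 of Col-0 on plates the difference of the ATMG01370 extension was called too (-1.28, adjusted p = 0.0980).

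The extension of ATMG00670 differed between the double mutants. It held 65 and 69 reads in pho1-7 tex1-4, 29 and 20 in pho1-7 hpr1-5, 27 and 42 in pho1-7 and 51 and 41 in Col-0. The difference in log2 from pho1-7 tex1-4 to pho1-7 hpr1-5 was -1.25 ± 0.328 (SE, adjusted p = 0.0281), where 8.96% of extensions were called. The gene itself had 12 and 19 reads in the libraries of pho1-7 tex1-4, against 5 and 7 for pho1-7 hpr1-5 (log2 change -1.12, SE 0.546, adjusted p = 0.164), and a change of the extension relative to the gene was not tested. The call was lost without replicate 1 of pho1-7 tex1-4 (adjusted p = 0.131) and without replicate 2 of pho1-7 hpr1-5 (0.113), and without replicate 2 of pho1-7 tex1-4 or of pho1-7 the extension was also called as higher in pho1-7 tex1-4 than in pho1-7 (log2 change 1.05 and 1.01). With all libraries, 0 of 7 extensions were called by edgeR or DESeq2 in pho1-7 tex1-4 against pho1-7 (15.4% of all extensions), in pho1-7 hpr1-5 against pho1-7 (14.8%) and in pho1-7 against Col-0 (2.89%). At an unadjusted edgeR p under 0.05 there were 0, 1 and 0, the single one being ATMG01370, with a log2 change of -0.80 (adjusted p = 0.0854).

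**Figure D5:**
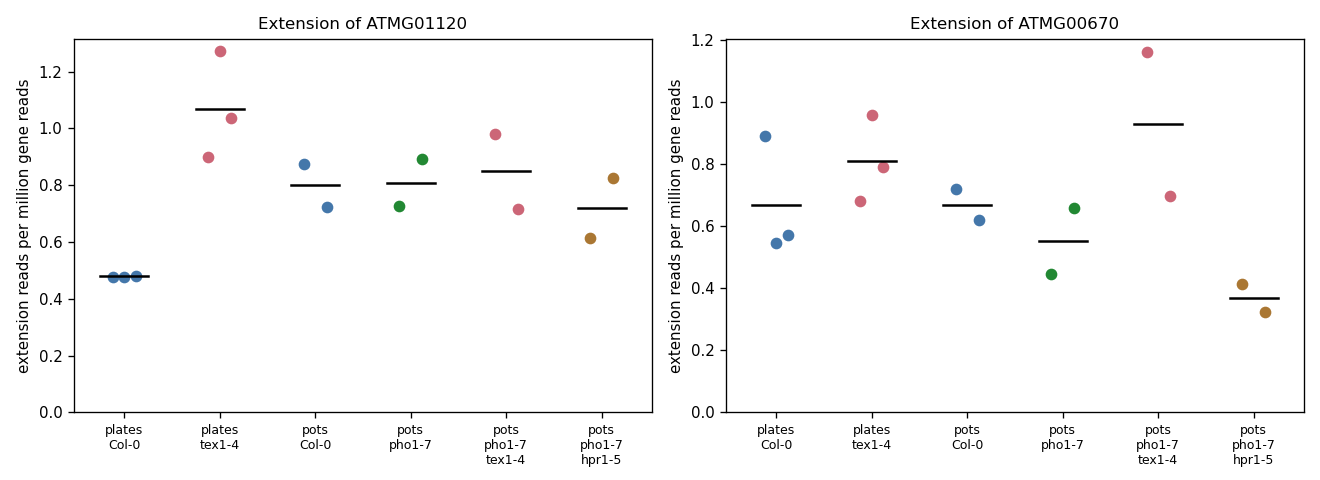
Reads in the extensions of ATMG01120 (left) and ATMG00670 (right) per 1000000 gene reads, with a point per library and a bar at the group mean. The 3 tex1-4 libraries on plates are above the 3 Col-0 libraries for ATMG01120, and pho1-7 tex1-4 is above pho1-7 hpr1-5 for ATMG00670.

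The nuclear partners of the mitochondrial genes were read from a list of 71 genes. Of the listed subunits of complexes I to IV, the ATP synthase and cytochrome c, 46 or 47 were tested in each comparison and edgeR called 0 in each of the 6, where 1.81% to 5.42% of all genes were called. At an unadjusted p under 0.05 there were 4 to 20 of them, where the share of all genes ran from 16.1% to 47.3%, and DESeq2 called 1, in pho1-7 against Col-0 (AT5G25450 of complex III, log2 change -1.94 in edgeR, adjusted p = 0.118). Past the adjusted p at any fold there were 18 of 46 in pho1-7 tex1-4 against pho1-7 and 18 of 47 in tex1-4 on plates, where 46.4% and 37.2% of all genes were. For the tex1-4 change on plates their log2 changes lay between -0.60 and 0.55 with a median of 0.10, and for pho1-7 tex1-4 against pho1-7 between -0.42 and 0.58 with a median of 0.07. The 4 listed genes of mitochondrial transcription (RNA polymerases) and decay (nucleases) were not called by edgeR or DESeq2 in any of the 6, with 0 to 3 of them at an unadjusted p under 0.05.

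Among the partners, the calls were on 3 of the genes listed for alternative respiration and 3 of the 6 tested that were listed for mitochondrial stress. In pho1-7 tex1-4 against pho1-7, 6 of 68 partners tested were called, all higher, where 2.13% of all genes were called as higher. In pho1-7 hpr1-5 against pho1-7 there were 5 of 68, all higher (2.73% of all genes), and in tex1-4 against Col-0 on plates 3 of 70, all higher (2.33%). DESeq2 called 5, 5 and 3 of the same genes. Without the fold limit 24 partners were higher and 8 lower in pho1-7 tex1-4 against pho1-7 (24.5% and 21.9% of all genes), 12 higher and 8 lower in pho1-7 hpr1-5 against pho1-7 (21.2% and 20.0%), and 19 higher and 5 lower in tex1-4 on plates (17.8% and 19.3%). NDB1, another alternative dehydrogenase gene, was among those lower in both double mutants (log2 changes -0.21 and -0.42, adjusted p = 0.0283 and 0.00209). In pho1-7 against Col-0 the alternative dehydrogenase gene NDA1 was higher (log2 change 1.28, adjusted p = 0.0398) and NDB3 lower (-1.92, adjusted p = 0.0690).

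NDB4, which encodes an alternative NAD(P)H dehydrogenase of the mitochondrial inner membrane, stood at 0.222, 0.325 and 0.0613 CPM in Col-0 on plates and at 5.42, 5.78 and 3.72 CPM in tex1-4. In pots it stood at 0.369 and 0.307 CPM in Col-0, 0.214 and 0.153 CPM in pho1-7, 1.31 and 1.76 CPM in pho1-7 tex1-4 and 0.513 and 0.681 CPM in pho1-7 hpr1-5. The mutants of either THO subunit were above their controls in every library. The log2 change was 4.61 on plates (SE 0.434, adjusted p = 0.00137 from edgeR), 3.07 in pho1-7 tex1-4 against pho1-7 (SE 0.300, adjusted p = 0.000536) and 1.70 in pho1-7 hpr1-5 against pho1-7 (SE 0.329, adjusted p = 0.00686), and pho1-7 hpr1-5 was below pho1-7 tex1-4 (-1.38, adjusted p = 0.00728).

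AT2G21640, used as a marker of oxidative stress in mitochondria, rose alongside. It stood at 2.31, 3.38 and 2.63 CPM in Col-0 and 10.8, 12.1 and 9.64 CPM in tex1-4 on plates, a log2 change of 1.97 ± 0.162 (SE, adjusted p = 0.000907). In pots it stood at 2.03 and 2.1 CPM in Col-0, 1.37 and 1.5 CPM in pho1-7, 3.26 and 3.20 CPM in pho1-7 tex1-4 and 3.25 and 3.15 CPM in pho1-7 hpr1-5, so both double mutants were above Col-0 as well. Against pho1-7 it rose in pho1-7 tex1-4 (log2 change 1.17, adjusted p = 0.000877) and in pho1-7 hpr1-5 (1.16, adjusted p = 0.000699). NAC13, a transcription factor of the signal from mitochondria to the nucleus, rose against pho1-7 by 1.03 on the log2 scale in pho1-7 tex1-4 (adjusted p = 0.000271) and by 1.07 in pho1-7 hpr1-5 (adjusted p = 0.000183), and UGT74E2, a glucosyltransferase induced by such signals, by 1.04 and 1.70 (adjusted p = 0.0083 and 0.000961). For UGT74E2 the pho1-7 libraries were low, at 0.363 and 0.397 CPM, and pho1-7 tex1-4 at 0.744 and 0.819 CPM overlapped Col-0 at 0.753 and 0.660 CPM, with pho1-7 hpr1-5 above at 1.19 and 1.30 CPM. Both double mutants were above Col-0 for NAC13, at 15.3 to 16.0 CPM against 9.43 and 9.66 CPM.

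NDA1 rose against pho1-7 in both double mutants, by 1.30 on the log2 scale in pho1-7 tex1-4 (adjusted p = 0.00468) and by 1.14 in pho1-7 hpr1-5 (adjusted p = 0.0082). NDB3 rose in pho1-7 tex1-4 against pho1-7 (1.81, adjusted p = 0.0300) and on plates (1.17, adjusted p = 0.0822) at 0.0305 to 0.444 CPM in all libraries. In pots NDB3 stood at 0.0495 and 0.0305 CPM in pho1-7, while pho1-7 tex1-4 at 0.177 and 0.121 CPM overlapped Col-0 at 0.171 and 0.138 CPM, and it passed the filter through 1 library of each of these last groups. DESeq2 did not call NDB3 in pho1-7 against Col-0 or in pho1-7 tex1-4 against pho1-7. AOX1A, the main alternative oxidase, had log2 changes of 0.45 (adjusted p = 0.00303) and 0.63 (adjusted p = 0.000665) against pho1-7 for the tex1-4 and the hpr1-5 double mutant, below 2-fold, and of 0.25 on plates (adjusted p = 0.306). In pots it stood at 12.8 and 12.7 CPM in pho1-7, 18.1 and 16.8 CPM in pho1-7 tex1-4, 20.0 and 19.5 CPM in pho1-7 hpr1-5 and 16.7 and 17.4 CPM in Col-0, so pho1-7 tex1-4 overlapped Col-0. No partner gene was called for the difference of the tex1-4 change between pots and plates, where AT2G21640 passed the adjusted p alone (-0.81, adjusted p = 0.0905). Of 69 partners 7 had an unadjusted p under 0.05, against 16.1% of all genes, and DESeq2 called 0. Both double mutants were compared with the same pho1-7 libraries.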

How the data were processed

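The authors made stranded libraries of polyadenylated RNA, aligned the reads with Hisat2 to TAIR10.31 and counted them with HTSeq, and they deposited read counts per gene and per 3′ extension without normalization. Versions and the strand setting are not given in the sources used here. The members and gene lists were chosen with earlier results of these data known.

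Samples were grouped by their labels. All genes were fitted with edgeR 4.0.16 in R 4.3.3 (filterByExpr, TMM, quasi-likelihood test, Benjamini-Hochberg adjustment over all genes tested), the 8 pot libraries together, the 6 plate libraries together and all 14 for the interaction. The threshold for a call was an adjusted p below 0.1 together with a change over 2-fold. Each standard error is the size of the log2 change divided by the square root of F. The test was tried on simulated counts. Nothing says whether the samples of a group came from separate cultures, so p-values measure only the spread between these samples. DESeq2 1.42.0, other normalizations and filters and leaving out each replicate were alternatives. Extensions were tested in one table with the genes, a step chosen after the data were seen. The share of reads was compared with exact permutation tests in Python 3.11.15.

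The text gives in full the 12 members of highest mean CPM (values for the pair of leading genes and for called members, ranges for the rest), called members, and called genes of the partner list. The planned classes of mitochondrial genes came from reference symbols and could be applied only where a note of a TAIR10.1 gene names the function, because the tables at hand pair the identifiers with no symbol. Relatives were aligned with blastn 2.17.0. Precision rests on the reads: a gene with 5 to 11 reads in a library carries a large counting error.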

Additional observations from a re-analysis of the deposited data

Results flagged for a closer look

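The change of the ATMG01120 extension with tex1-4 differed between pots and plates by -1.06 on the log2 scale (adjusted p = 0.0969 from edgeR), with a log2 change of 1.11 on plates and of 0.05 in pots. It is listed here because this difference between the experiments passed its own test, which it did not in 8 of the 10 fits that left out 1 library. A change of the extension relative to the gene was not tested. Background genotype, age, growth and library type differ together between the experiments and cannot be told apart.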

How the results depend on the processing

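The counts of called mitochondrial genes were 0 in every alternative for pho1-7 against Col-0, pho1-7 tex1-4 against pho1-7 and pho1-7 hpr1-5 against pho1-7 tex1-4. For pho1-7 hpr1-5 against pho1-7 the count of 1 became 0 with DESeq2, without the filter on low counts and with only the 2 groups in the fit, and lay between 0 and 1 when a replicate was left out. For tex1-4 on plates the count of 0 became 1 without the filter, and lay between 0 and 3 when a replicate was left out. For the interaction it lay between 0 and 3 when a replicate was left out. The share of all genes called in each alternative is not given here, and the cause was not tested.

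The difference in share of pho1-7 from Col-0 ran from -26.8 to 23.54 reads per 1000000 gene reads when a replicate was left out, so its sign is not settled. The other differences in share kept their sign in every alternative, but that of pho1-7 hpr1-5 from pho1-7 ran from 1.03 to 36.3 and that of tex1-4 from Col-0 on plates from 47.9 to 134. The log2 change of ATMG00020 in pho1-7 against Col-0, -0.02 as reported, was 0.0130 without the filter and 0.00905 with the crossed replicate block, and ran from -0.27 to 0.32 when a replicate was left out. When a replicate was left out, the log2 change of ATMG01390 in that comparison ran from -0.24 to 0.17, and that of ATMG00020 in pho1-7 hpr1-5 against pho1-7 from -0.0891 to 0.34.

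Same-numbered samples deviated together with correlations from -0.191 to 0.112 across genes, so the numbers do not pair the samples. With the replicate number as a block, 1 gene was called in pho1-7 hpr1-5 against pho1-7 and 0 in each of the other comparisons, and the count of called extensions for the interaction went from 1 to 0. Crossing the numbers of Col-0 in pots, an alternative chosen after seeing the data, gave 0 called genes.

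Counts of under 10 reads in a library limit most of the genes, and 39 of 57 could not be tested in pots.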
